A study of Rattus norvegicus with 12 samples.

Results

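PTinj is the cluster of nuclei that the authors annotated as injured proximal tubule in a single-nucleus RNA sequencing atlas of the ZSF1 rat kidney. Its members were taken as all nuclei that carry the deposited low-level cluster name PTinj, which gave 5852 of 217132 nuclei from 12 rats. PTinj made up 2.70% of all nuclei and 4.44% of the 131671 nuclei in the 8 proximal tubule clusters, and it was the 11th largest of the 25 clusters. At the high-level annotation 5849 of its nuclei were called proximal tubule and 3 were called LOH.

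Each group held 3 male ZSF1-LeprfaLeprcp/Crl rats, a hybrid strain whose obese animals carry 2 mutated leptin receptor alleles and develop obesity, diabetes and kidney disease. The Lean group was untreated. The Obese group received vehicle alone, a mixture of ethanol, Kolliphor HS15 and water, which the treated groups received too. The Obese+sGCact group received the soluble guanylate cyclase activator BAY 1101042 (runcaciguat) at 3 mg/kg 2 times a day. The Obese+sGCstim group received the stimulator BAY 1165747 (BAY-747) at 3 mg/kg 1 time a day. All 9 obese rats were assigned at 13 to 14 weeks of age and dosed for 12 weeks, and no lean rat was treated. The 2 compounds thus differed in daily dose. Soluble guanylate cyclase makes cyclic GMP when nitric oxide binds its heme. Stimulators act on the enzyme that still holds reduced heme, and activators act on the enzyme whose heme is oxidized or lost.

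The proximal tubule reabsorbs most of the filtered glucose, amino acids, phosphate and bicarbonate, and it depends on mitochondrial respiration to do so. After damage, surviving proximal tubule cells lose transporters and mitochondria and switch on injury genes such as Havcr1, which encodes kidney injury molecule 1, and Vcam1, an adhesion molecule of failed repair. Some of these cells divide and restore the epithelium, and others persist in the injured state next to fibrosis. The values available for each nucleus were its number of unique molecular identifiers (UMIs, counted RNA molecules), its number of expressed genes, its percentage of mitochondrial UMIs, its S and G2M phase scores, its cluster and its position on the authors' map. No gene's expression was analysed here, so the name PTinj was not checked against Havcr1 and Vcam1, and it is used as the authors' name.

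The rats gave 10488 to 43484 nuclei each and 11898496 to 49272672 UMIs in all their nuclei. RK9_4 of the Obese group stood apart with 43484 nuclei, of which 40029 lay in the proximal tubule clusters, although 10000 nuclei were loaded for each rat. PTinj nuclei had no repeated names, and 2 cell barcodes occurred in PTinj nuclei of more than 1 rat, which concerned 4 nuclei. RK16_4 of the Obese group and RK61_4 of the Obese+sGCstim group together held 39.0% of all PTinj nuclei, so the tests below were made over rats, and the few values pooled over nuclei are descriptions. With 3 rats against 3 the exact two-sided permutation test cannot give a p below 0.1, which is the value for groups that do not overlap.

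The first question was whether PTinj nuclei took a larger part of the kidney in obese rats and a smaller one after treatment. PTinj was 1.40%, 1.76% and 1.24% of all nuclei in the 3 Lean rats RK1_4, RK3_4 and RK5_4. It was 4.52% in RK7_4, 1.05% in RK9_4 and 9.08% in RK16_4 of the Obese group. It was 1.84%, 1.92% and 2.01% in the Obese+sGCact rats RK43_4, RK45_4 and RK46_4. It was 4.44%, 2.93% and 4.70% in the Obese+sGCstim rats RK57_4, RK58_4 and RK61_4. The Obese group therefore held both the lowest and the highest share of all 12 rats, and the Obese+sGCact rats lay closest together. The means were 1.47% ± 0.267 (SD, n = 3) in Lean, 4.88% ± 4.03 (SD, n = 3) in Obese, 1.92% ± 0.0875 (SD, n = 3) in Obese+sGCact and 4.02% ± 0.955 (SD, n = 3) in Obese+sGCstim. Within a rat the counting error was small beside these differences, with a 95% Wilson interval of 0.957% to 1.15% in RK9_4 and of 8.60% to 9.58% in RK16_4, which covers counting error only.

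On this measure no comparison passed the test across the 25 clusters. Both treatments were compared with the same 3 Obese rats, so their comparisons are not independent. A limma fit to the log odds of each cluster's share gave odds of PTinj 2.50 times as high in Obese as in Lean rats (95% confidence interval 0.792 to 7.89, Benjamini-Hochberg adjusted p = 0.340). In that comparison 3 of the 25 clusters (12%) passed, all lower in Obese. Without RK9_4 the difference in log odds grew from 0.92 to 1.54 and passed (limma adjusted p = 0.0188). It did not pass without any 1 of the other 11 rats, with differences down to 0.42 and limma adjusted p up to 0.568. How many other clusters passed without RK9_4 was not counted. The odds in Obese+sGCact were 0.532 times those in Obese (0.169 to 1.68, limma adjusted p = 0.496), and 0 of 25 clusters (0%) passed. The odds in Obese+sGCstim were 1.11 times those in Obese (0.353 to 3.51, limma adjusted p = 0.961), where 0% of the clusters passed as well. Between the treatments, at their differing daily doses, the odds in Obese+sGCact were 0.478 times those in Obese+sGCstim (0.151 to 1.51, limma adjusted p = 0.964), again with 0% passing. In these 3 comparisons 0 clusters had an unadjusted p under 0.05 in limma, and PTinj did not pass with edgeR on the numbers of nuclei either. All 9 pairs of an Obese+sGCact and an Obese+sGCstim rat had the lower share in the Obese+sGCact rat (exact permutation p = 0.1).

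**Figure D1:**
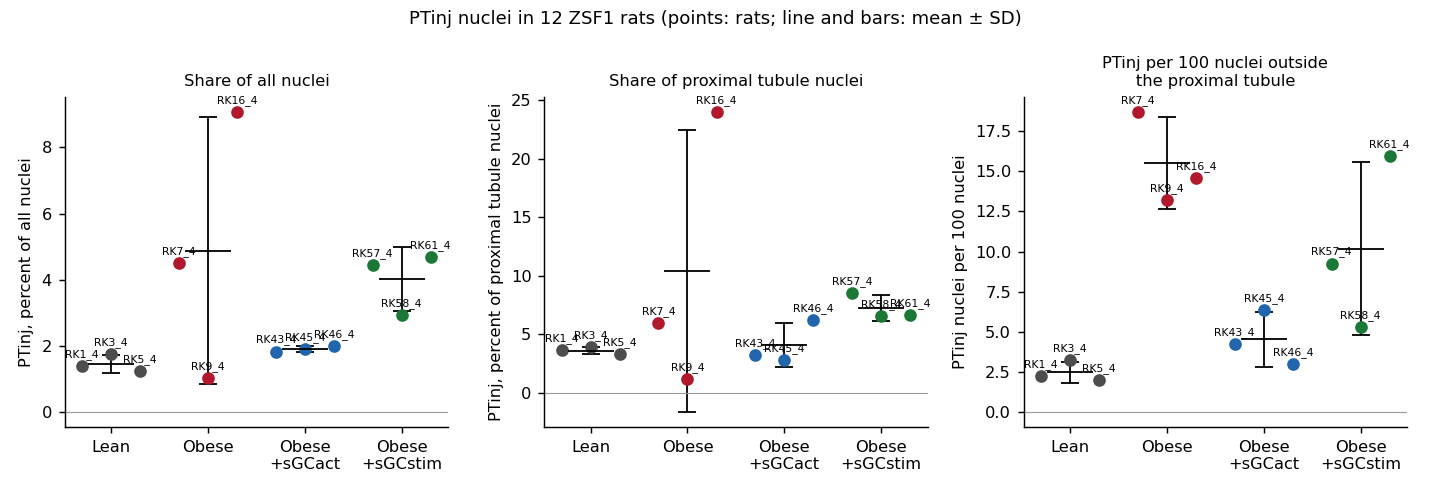
PTinj nuclei in each of the 12 rats as a percentage of all nuclei (left), as a percentage of proximal tubule nuclei (middle) and as a number per 100 nuclei outside the proximal tubule (right), with points for rats and lines and bars for the mean and SD of 3 rats. In the left and middle plots the Obese rats span the Lean rats, while in the right plot the Obese rats sit between 13.2 and 18.7 and the Lean rats between 2.00 and 3.24.

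The share within the proximal tubule gave the same picture. PTinj was 3.62%, 3.86% and 3.28% of the proximal tubule nuclei in the Lean rats, again in the order RK1_4, RK3_4 and RK5_4. In the Obese rats it was 5.96% in RK7_4, 1.14% in RK9_4 and 24.0% in RK16_4. The Obese+sGCact rats RK43_4, RK45_4 and RK46_4 had 3.23%, 2.75% and 6.18%, and the Obese+sGCstim rats RK57_4, RK58_4 and RK61_4 had 8.55%, 6.56% and 6.66%. All 3 Obese+sGCstim rats lay above all Lean and all Obese+sGCact rats, and inside the range of the Obese rats. Across the 8 proximal tubule clusters limma gave an odds ratio of 1.65 for Obese against Lean (0.362 to 7.55, adjusted p = 0.639), with 1 of 8 clusters (12.5%) passing. The ratio was 0.646 for Obese+sGCact against Obese (0.141 to 2.95, limma adjusted p = 0.716) and 1.27 for Obese+sGCstim against Obese (0.277 to 5.78, limma adjusted p = 0.928), with 0% of the 8 clusters passing in either. The comparison of Obese+sGCact with Obese+sGCstim gave 0.511 (0.112 to 2.33, limma adjusted p = 0.621), with 0% passing and, as in the other 2 comparisons with 0%, 0 clusters at an unadjusted p under 0.05. Without RK16_4 the direction turned for Obese against Lean, to a log odds difference of -0.32, and for Obese+sGCact against Obese, to 0.38.

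The other proximal tubule clusters moved strongly between rats, which sets the denominator of these shares. The straight tubule cluster PST ranged from 14.5% to 75.4% of the proximal tubule nuclei, PST(S2) from 0.402% to 35.5%, PST(Spp1+) from 0.175% to 42.0% and PCT(Spp1+) from 0.312% to 10.4%. The convoluted tubule cluster PCT ranged from 6.65% to 31.2% and PTnov1 from 4.02% to 8.99%. PTnov2 reached 10 nuclei in 4 rats only, among them the 3 Lean rats, and was the 1 cluster that passed the test above. The part that these clusters had in the PTinj share was not tested separately from the other denominators given below.

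**Figure D2:**
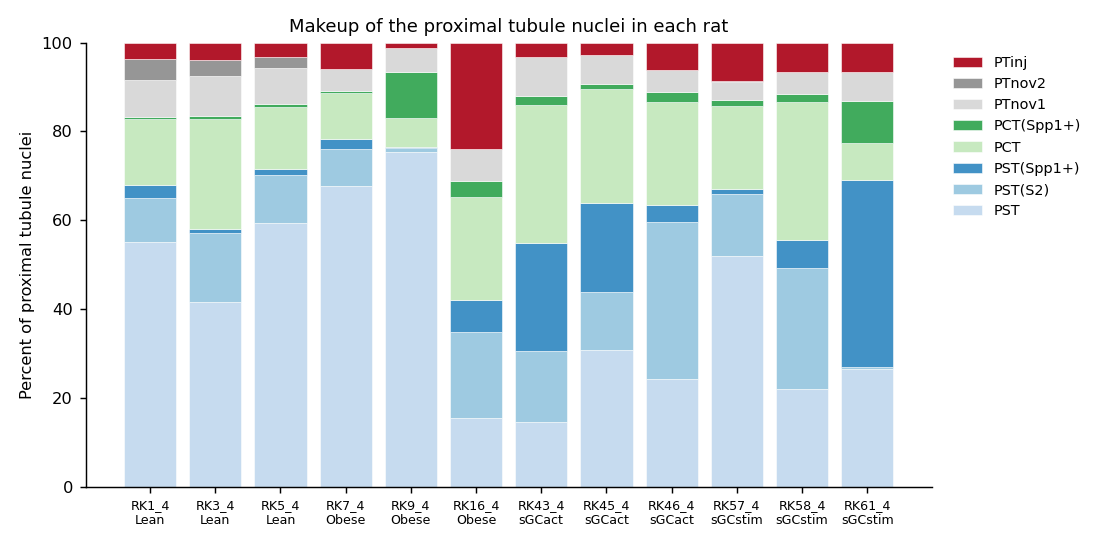
Stacked bars give the percentage of each of the 8 proximal tubule clusters among the proximal tubule nuclei of each rat. PTinj (dark red, top) takes 24.0% in RK16_4 and 1.14% in RK9_4, where PST takes 75.4%.

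Set against the nuclei outside the proximal tubule, PTinj differed between the groups. For every 100 nuclei of the 17 clusters outside the proximal tubule there were 2.28, 3.24 and 2.00 PTinj nuclei in the Lean rats RK1_4, RK3_4 and RK5_4. There were 18.7 in RK7_4, 13.2 in RK9_4 and 14.6 in RK16_4 of the Obese group, so the 3 Obese rats no longer spread from the lowest to the highest value of the study. The Obese+sGCact rats RK43_4, RK45_4 and RK46_4 had 4.26, 6.37 and 2.98, and the Obese+sGCstim rats RK57_4, RK58_4 and RK61_4 had 9.25, 5.30 and 15.9. The means were 2.51 ± 0.653 in Lean, 15.5 ± 2.86 in Obese, 4.54 ± 1.71 in Obese+sGCact and 10.2 ± 5.38 in Obese+sGCstim (SD, n = 3 each). The Obese group overlapped with neither the Lean nor the Obese+sGCact group (exact permutation p = 0.1 in both), and the Obese+sGCstim group overlapped with both of the other obese groups.

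The share of PTinj without the other proximal tubule nuclei was made a result of its own after the data were seen. In the limma fit to PTinj and the 17 outside clusters, PTinj rose in Obese rats, with odds 6.24 times those in Lean rats (3.17 to 12.3, adjusted p = 0.00142). Of the 18 clusters 2 (11.1%) passed in this comparison, both higher, and the other one was Immune, named here after its values were seen. PTinj fell with the activator, to odds 0.282 times those of the Obese rats (0.144 to 0.556, limma adjusted p = 0.0288), and it was the 1 cluster (5.56%) that passed. With the stimulator the odds were 0.601 times those of the Obese rats (0.305 to 1.18, limma adjusted p = 0.969), with 0% of the clusters passing and 0 at an unadjusted p under 0.05. The odds with the activator were 0.470 times those with the stimulator (0.239 to 0.925), which did not pass after adjustment (limma adjusted p = 0.572, 0% passing, 1 cluster at an unadjusted p under 0.05), so the 2 treatments were not shown to differ. Against the Lean rats, in contrasts also added after the data were seen, the odds were 1.76 times as high in Obese+sGCact (limma adjusted p = 0.190) and 3.75 times as high in Obese+sGCstim rats (1.91 to 7.38, limma adjusted p = 0.0208).

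The difference between Obese and Lean rats passed without each of the 12 rats in turn, with log odds differences of 1.73 to 1.97. The difference between Obese+sGCact and Obese rats lay between -1.46 and -1.08 and missed the threshold without RK7_4 (limma adjusted p = 0.133), RK9_4 (0.0655), RK43_4 (0.113), RK46_4 (0.178) or RK57_4 (0.0525). The number of nuclei outside the proximal tubule was itself lower in the Obese rats (2551, 3455 and 8163) than in the Lean rats (10239, 8235 and 10502). It was 9156, 6513 and 7076 in the Obese+sGCact rats and 5934, 6776 and 6861 in the Obese+sGCstim rats. More PTinj nuclei and fewer recovered nuclei outside the proximal tubule therefore cannot be told apart in a share. The same holds for fewer PTinj nuclei and more recovered nuclei outside it in the treated rats. The numbers of PTinj nuclei themselves were 233, 267 and 210 in the Lean rats, 477, 456 and 1191 in the Obese rats, 390, 415 and 211 in the Obese+sGCact rats and 549, 359 and 1094 in the Obese+sGCstim rats.

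The median mitochondrial percentage of the other proximal tubule nuclei differed more between the rats than that of the PTinj nuclei. The median PTinj nucleus had between 0% and 0.208% mitochondrial UMIs in every rat. The median of the other proximal tubule nuclei was 0.0451%, 0.080% and 0% in the Lean rats RK1_4, RK3_4 and RK5_4, and 4.28% in RK7_4, 4.01% in RK9_4 and 0.432% in RK16_4 of the Obese group. It was 2.23%, 1.54% and 0% in the Obese+sGCact rats RK43_4, RK45_4 and RK46_4, and 0%, 0.0406% and 4.89% in the Obese+sGCstim rats RK57_4, RK58_4 and RK61_4. High mitochondrial shares in the other proximal tubule nuclei thus occurred in 5 of the 9 obese rats at medians above 1%, and in no Lean rat. The percentage of nuclei with at most 1% mitochondrial UMIs was higher in PTinj than in the other proximal tubule nuclei in 9 rats. It was lower in RK3_4 (67.0% against 71.7%), RK5_4 (83.8% against 87.5%) and RK46_4 (78.2% against 88.4%). Among the proximal tubule clusters PTinj had the lowest median in 7 of 12 rats, ties at 0% included, and was within the lowest 3 in all 12. A low share was not particular to PTinj. The middle value of the rats' medians was 0% for PST(S2), 0.0430% for PST and 0.0543% for PTinj. It was 0.702% or more for the remaining clusters. The highest median of a rat was 1.00% for PST(S2), 5.33% for PST and 0.208% for PTinj. The clusters were built by the authors from the same transcripts, so these are descriptions of PTinj and not tests of it.

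The mean over nuclei separated groups that overlapped in the median. The mean mitochondrial percentage of PTinj was 0.520%, 1.33% and 0.508% in the Lean rats RK1_4, RK3_4 and RK5_4, and 0.142%, 0.284% and 0.329% in the Obese rats RK7_4, RK9_4 and RK16_4. It was 0.814%, 0.876% and 0.521% in the Obese+sGCact rats and 0.119%, 0.0731% and 0.0839% in the Obese+sGCstim rats. The Obese rats thus lay below all Lean and all Obese+sGCact rats and above all Obese+sGCstim rats (exact permutation p = 0.1 in each comparison). Exact tests were made on many measures, and how many other clusters separated in this way was not counted. The limma differences of the mean, given below, did not pass. PTinj nuclei with at most 1% mitochondrial UMIs were 67.0% to 89.7% of PTinj in Lean, 93.2% to 96.4% in Obese, 70.4% to 78.2% in Obese+sGCact and 95.4% to 99.5% in Obese+sGCstim rats.

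The median PTinj nucleus had 3377, 2147 and 1690.5 UMIs in the Lean rats RK1_4, RK3_4 and RK5_4, and 1835, 2678 and 1826 in the Obese rats RK7_4, RK9_4 and RK16_4. It had 2008, 1511 and 1929 in the Obese+sGCact rats and 1882, 2212 and 2087.5 in the Obese+sGCstim rats, so the groups overlapped. The other proximal tubule nuclei had medians of 3467, 2470 and 2009 UMIs in the Lean rats but 679.5 in RK7_4, 890 in RK9_4 and 1413.5 in RK16_4. In the Obese+sGCact rats RK43_4, RK45_4 and RK46_4 they had 922, 800 and 2025, and in the Obese+sGCstim rats RK57_4, RK58_4 and RK61_4 they had 1856, 1635.5 and 872. The ratio of the PTinj median to that of the other proximal tubule nuclei of the same rat was thus 0.841 to 0.974 in Lean and 1.29 to 3.01 in Obese rats, which do not overlap (exact permutation p = 0.1 on the log2 ratio). The other proximal tubule nuclei of the Obese rats had lower medians than those of all Lean rats, while the PTinj medians overlapped. Above the 95th percentile of UMIs of all nuclei of their rat lay 57.5% of PTinj and 3.30% of the other proximal tubule nuclei in RK9_4. The values were 10.7% and 5.79% in RK7_4, and 7.30% and 7.54% in RK16_4. Outside the Obese group the highest PTinj value was 17.1% in RK61_4, against 3.89%, so RK9_4 stood apart in this. Of the 43484 nuclei that set the percentile in RK9_4, 40029 lay in the proximal tubule clusters.

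Within PTinj the median UMI count did not pass in any comparison. The fold was 0.901 for Obese against Lean (0.599 to 1.36, limma adjusted p = 0.605), when 4 of 24 clusters (16.7%) passed, all lower. It was 0.867 for Obese+sGCact against Obese (0.576 to 1.30, limma adjusted p = 0.833), with 8.33% of clusters passing, and 0.989 for Obese+sGCstim against Obese (0.658 to 1.49, limma adjusted p = 0.958), with 0% passing and 1 cluster at an unadjusted p under 0.05. The fold between Obese+sGCact and Obese+sGCstim was 0.877 (0.583 to 1.32, limma adjusted p = 0.778), with 4.17% passing. PST, the largest proximal tubule cluster, was among the 4 that fell in Obese rats, by 1.61 on the log2 scale (limma adjusted p = 0.00349), against -0.15 for PTinj. The median mitochondrial percentage of PTinj, on the scale log2(percentage + 0.1), changed by -0.08 in Obese against Lean rats (SE 0.63, limma adjusted p = 0.917), with 0% of 24 clusters passing and 3 at an unadjusted p under 0.05. It changed by 0.07 in Obese+sGCact against Obese rats (limma adjusted p = 0.916, 4.17% passing), by -0.51 in Obese+sGCstim against Obese rats (limma adjusted p = 0.739, 0% passing, 2 at an unadjusted p under 0.05) and by 0.57 in Obese+sGCact against Obese+sGCstim rats (limma adjusted p = 0.706, 4.17% passing). With the mean over nuclei in place of the median these differences were -1.25 (limma adjusted p = 0.313), 1.26 (limma adjusted p = 0.364), -0.84 (limma adjusted p = 0.416) and 2.10 (limma adjusted p = 0.0732), larger in size but not past the threshold.

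**Figure D3:**
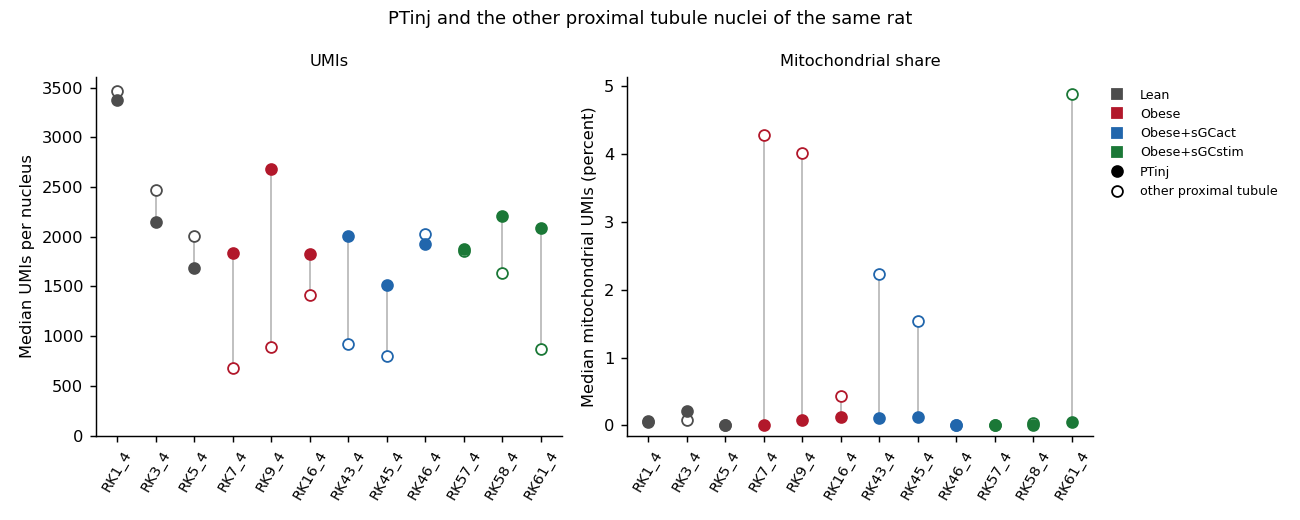
Median UMIs per nucleus (left) and median percentage of mitochondrial UMIs (right) in each of the 12 rats, with filled points for PTinj, open points for the other proximal tubule nuclei of the same rat and colors for the groups. The PTinj medians stay at or below 0.208% mitochondrial UMIs while those of the other proximal tubule nuclei reach 4.89% in RK61_4.

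When only nuclei with at most 1% mitochondrial UMIs were counted, the PTinj share of all nuclei was 1.67%, 1.67% and 1.15% in the Lean rats and 9.82%, 6.05% and 13.9% in the Obese rats. It was 2.83%, 2.37% and 1.78% in the Obese+sGCact rats and 4.79%, 3.02% and 10.8% in the Obese+sGCstim rats. This filter also removed a larger part of PTinj in the Lean and Obese+sGCact rats than in the Obese rats, as the percentages above give. Of the other proximal tubule nuclei it removed, on average, the largest part in the Obese rats. The means kept were 77.3% in Lean, 32.9% in Obese and 55.6% in Obese+sGCact rats (SD 8.86, 24.2 and 28.6, n = 3 each). The Obese and Obese+sGCact rats overlapped in this. Both removals are in the direction of the Obese differences from Lean and Obese+sGCact rats below. The size of their part in these differences was not tested. With the filter RK9_4 changed from the lowest share of all 12 rats to the fourth highest. In this count PTinj rose in Obese against Lean rats by 1.94 in log odds (SE 0.42, limma adjusted p = 0.0146), with 20% of the 25 clusters passing, and fell by 1.49 in Obese+sGCact against Obese rats (SE 0.42, limma adjusted p = 0.0483), with 8% passing. In Obese+sGCstim against Obese rats the difference was -0.59 (limma adjusted p = 0.888, 0% passing). As a share of the proximal tubule nuclei with at most 1% mitochondrial UMIs, PTinj was 3.14% to 4.43% in Lean, 9.06% to 33.3% in Obese, 4.45% to 6.71% in Obese+sGCact and 6.95% to 19.9% in Obese+sGCstim rats. There it rose by 1.74 in log odds in Obese against Lean rats (SE 0.55, limma adjusted p = 0.0289), with 37.5% of the 8 clusters passing, and did not pass between Obese+sGCact and Obese rats (-1.33, SE 0.55, limma adjusted p = 0.246).

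The S and G2M phase scores measure, for each nucleus, how far the genes of a cell cycle phase lie above or below control genes of like expression, so 0 means no excess. The mean G2M score of PTinj was -0.0039, -0.0069 and -0.0054 in the Lean rats RK1_4, RK3_4 and RK5_4. It was 0.0013, 0.0055 and 0.016 in the Obese rats RK7_4, RK9_4 and RK16_4. It was -0.0094, -0.0046 and -0.0033 in the Obese+sGCact rats RK43_4, RK45_4 and RK46_4. It was 0.0038, 0.0031 and 0.0014 in the Obese+sGCstim rats RK57_4, RK58_4 and RK61_4. All Lean and Obese+sGCact rats lay below 0 and all Obese and Obese+sGCstim rats above it. The size is small beside the spread of single nuclei, whose SD was 0.0438 to 0.111 within a rat.

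The mean G2M score of PTinj rose in Obese against Lean rats by 0.013 (SE 0.0035, limma adjusted p = 0.0240). It was 1 of 6 clusters that passed among 24 (25%), all higher in Obese, and 3 of the other 5 were the proximal tubule clusters PST, PST(Spp1+) and PTnov1. The remaining ones, TAL and Fib/Peri, are named after their values were seen. The difference of -0.013 between Obese+sGCact and Obese rats (SE 0.0035) missed the threshold over all nuclei (limma adjusted p = 0.0601), and 0% of the 24 clusters passed, with 7 at an unadjusted p under 0.05. The difference was -0.0048 between Obese+sGCstim and Obese rats (SE 0.0035, limma adjusted p = 0.783, 0% passing, 3 at an unadjusted p under 0.05) and -0.0085 between Obese+sGCact and Obese+sGCstim rats (SE 0.0035, limma adjusted p = 0.240, 0% passing, 4 at an unadjusted p under 0.05). Because the scores of single nuclei depend on depth, the means were also taken over the nuclei with 1000 to 2000 UMIs, 26 to 623 PTinj nuclei a rat. There the Lean rats had -0.0069, -0.0083 and -0.012, the Obese rats 0.0012, 0.0069 and 0.0061, the Obese+sGCact rats -0.011, -0.010 and -0.0089, and the Obese+sGCstim rats 0.0060, -0.00047 and -0.000053. In these nuclei PTinj rose by 0.014 in Obese against Lean rats (SE 0.0026, limma adjusted p = 0.00856), and fell by 0.015 in Obese+sGCact against Obese rats (SE 0.0026, limma adjusted p = 0.00424). It was also lower by 0.012 in Obese+sGCact than in Obese+sGCstim rats (SE 0.0026, limma adjusted p = 0.0223), at their differing daily doses. How many of the other clusters passed among these nuclei was not counted, so these calls are not shown to be particular to PTinj. The median over nuclei, in place of the mean, gave a difference of 0.0091 between Obese and Lean rats (limma adjusted p = 0.178). The Obese rise over all nuclei missed the threshold without RK3_4 (limma adjusted p = 0.102) or without RK5_4 (0.0566).

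**Figure D4:**
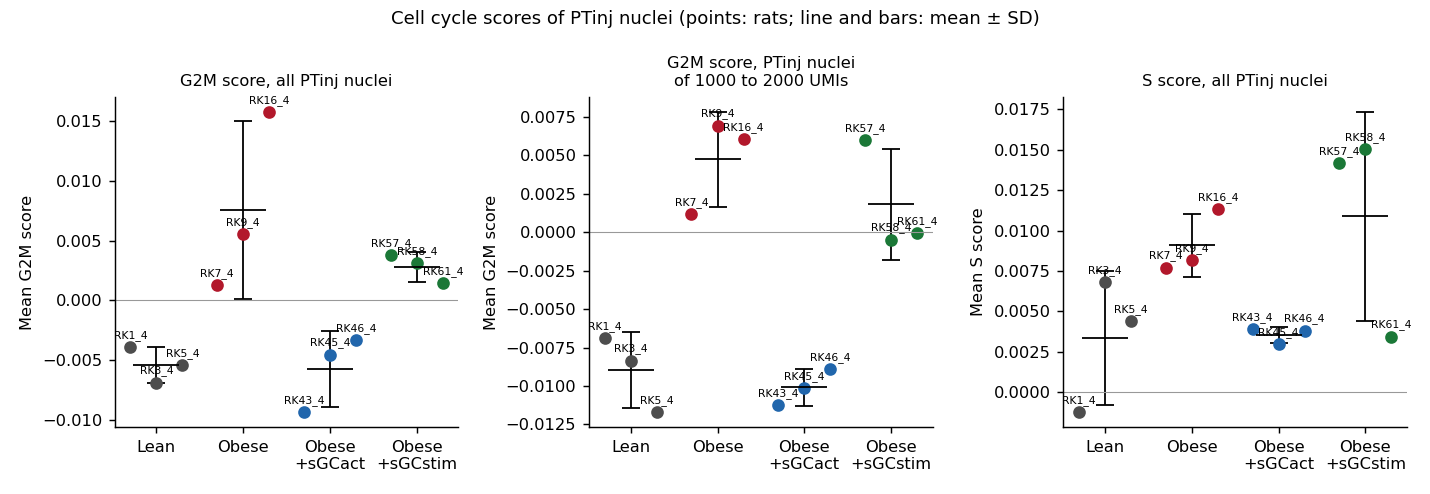
Mean G2M score of all PTinj nuclei (left), of PTinj nuclei with 1000 to 2000 UMIs (middle) and mean S score of all PTinj nuclei (right) in each of the 12 rats, with lines and bars for the mean and SD of 3 rats. In the left plot the Lean and Obese+sGCact rats lie below 0 and the Obese and Obese+sGCstim rats above 0.

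A G2M rise beyond that of the other proximal tubule nuclei was not shown for PTinj. The mean G2M score of PTinj minus that of the other proximal tubule nuclei of the same rat was 0.0077, 0.0052 and 0.0077 in the Lean rats, and -0.0030, -0.00080 and 0.022 in the Obese rats, with overlapping groups (exact permutation p = 1). Among nuclei with 1000 to 2000 UMIs the sign turned in the Lean rats, to -0.0048, -0.0040 and -0.00060, and the Obese rats had 0.0017, -0.0013 and 0.012, again with overlap (exact permutation p = 0.2). In these nuclei the Obese+sGCact rats had -0.0064, -0.0062 and -0.0058, below all Obese rats (exact permutation p = 0.1), and the Obese+sGCstim rats had 0.012, 0.00086 and 0.0010. Over all depths the other proximal tubule nuclei themselves went from -0.012, -0.012 and -0.013 in the Lean rats to 0.0043, 0.0063 and -0.0059 in the Obese rats. PTinj had the highest G2M score of the proximal tubule clusters in 1 rat of 12.

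The S score set PTinj apart from the other proximal tubule nuclei in more rats than the G2M score did. The mean S score of PTinj was above that of the other proximal tubule nuclei of the same rat in 12 of 12 rats, by 0.0021 to 0.015, and in 10 of 12 rats among nuclei with 1000 to 2000 UMIs. These differences are small beside the spread of single PTinj nuclei, whose SD was 0.0403 to 0.0655 within a rat. PTinj had the highest S score of the proximal tubule clusters in 7 rats and was within the highest 3 in all 12. Among all clusters it was highest in 2 rats and ranked as low as 12 in others. As the clusters were built from the same transcripts, these are descriptions. The group means of the PTinj S score were 0.0033 ± 0.0042 in Lean, 0.0091 ± 0.0020 in Obese, 0.0036 ± 0.00050 in Obese+sGCact and 0.011 ± 0.0065 in Obese+sGCstim rats (SD, n = 3 each). The 3 Obese rats lay above all Lean and all Obese+sGCact rats (exact permutation p = 0.1 in both). How many other clusters separated in the S score was not counted. No comparison passed across the clusters: the differences were 0.0057 for Obese against Lean (limma adjusted p = 0.449), -0.0055 for Obese+sGCact against Obese (0.507), 0.0018 for Obese+sGCstim against Obese (0.651) and -0.0073 for Obese+sGCact against Obese+sGCstim (0.433), and 0% of 24 clusters passed in each. At an unadjusted p under 0.05 there were 3, 3, 5 and 2 clusters in these comparisons. The authors' phase calls put 34.1% to 43.2% of PTinj nuclei of a rat in S and 26.7% to 35.9% in G2M. The same calls put 32.9% to 40.0% of the nuclei outside the proximal tubule in S and 24.0% to 31.8% in G2M, and no cycling is read from them.

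On the authors' map the PTinj nuclei, pooled over the rats, had neighbours both from the proximal tubule and from clusters outside it, some of them not tubular. For each PTinj nucleus the nearest nucleus of another cluster belonged to the proximal tubule in 2772 cases and lay outside it in 3080. PCT supplied the nearest nucleus for 15.2%, the descending thin limb cluster DTL for 14.9%, the endothelial cluster GEC(Meis2+) for 13.4%, PST for 13.3%, the ascending thin limb cluster ATL for 10.9% and PTnov1 for 8.95%. The share nearest to the proximal tubule was 40.5% to 45.5% in Lean, 43.9% to 53.2% in Obese, 45.8% to 50.0% in Obese+sGCact and 42.3% to 54.0% in Obese+sGCstim rats, with overlap between Lean and Obese. With neighbours of the same rat only, the share varied far more, with 80.3%, 81.6% and 27.1% in the Lean, 44.4%, 37.7% and 47.4% in the Obese, 40.3%, 34.2% and 60.7% in the Obese+sGCact and 83.1%, 47.9% and 33.8% in the Obese+sGCstim rats. PTinj also held 211 nuclei more than 5 map units from its centre along an axis. Distances on such a map follow its layout and are not distances in expression.

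**Figure D5:**
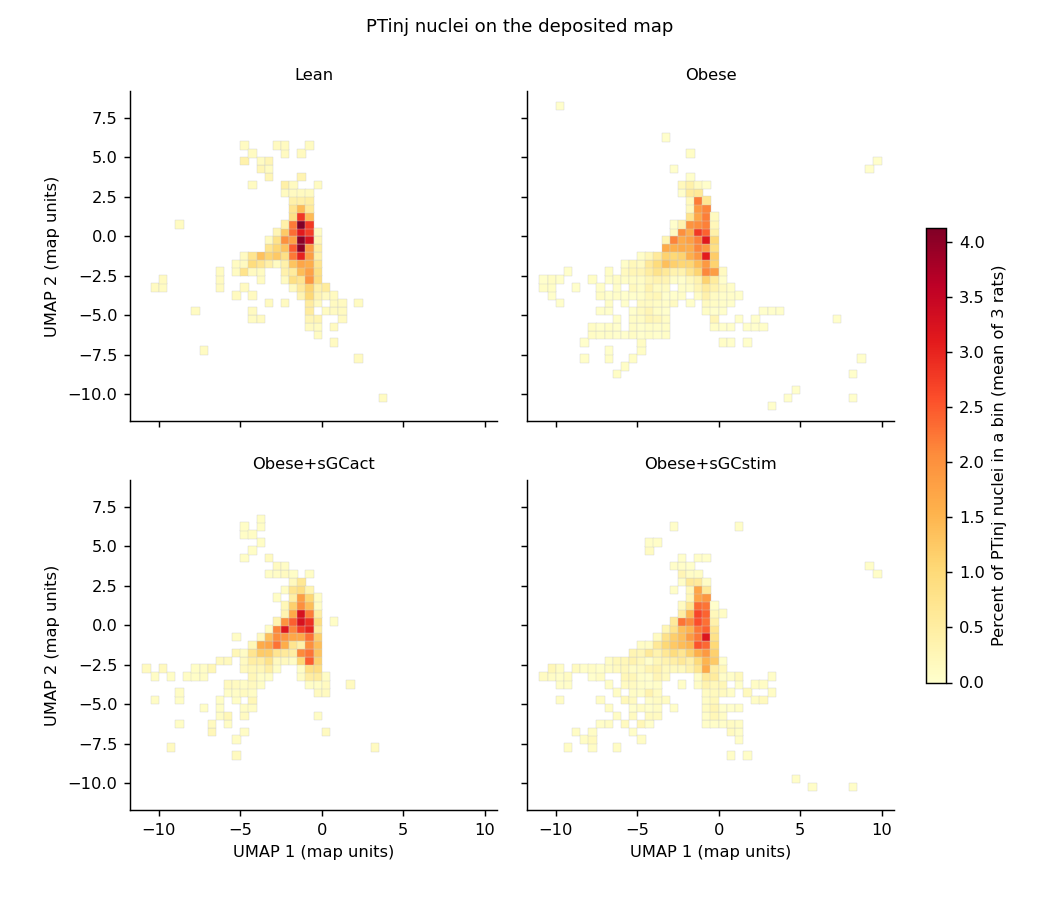
Squares of 0.5 map units are colored by the percentage of PTinj nuclei that fall in them, averaged over the 3 rats of each group, on the axes of the deposited map. In all, 137 squares hold nuclei in Lean, 220 in Obese, 156 in Obese+sGCact and 218 in Obese+sGCstim rats, whose numbers of PTinj nuclei differ.

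Over all 12 rats the log odds of PTinj among the proximal tubule nuclei was set against 4 measures of the nuclei outside the proximal tubule and against the number of nuclei of a rat. The relation was strongest with the log10 number of nuclei of a rat (Pearson r = -0.69, permutation p = 0.0189, adjusted p = 0.0945, and Spearman rho = -0.57, permutation p = 0.0558, adjusted p = 0.140), and it fell to r = -0.49 without the 2 rats farthest from the median. With the share of stroma among the nuclei outside the proximal tubule r was -0.52 (permutation p = 0.0878, adjusted p = 0.219) and rho was -0.53 (permutation p = 0.0790, adjusted p = 0.140), and r fell to -0.16 without the 2 farthest rats. With the share of immune nuclei outside the proximal tubule r was -0.19 (permutation p = 0.561, adjusted p = 0.561) and rho was -0.11 (permutation p = 0.732, adjusted p = 0.915), and r was 0.12 without the 2 farthest rats. With the median UMIs of the nuclei outside the proximal tubule r was -0.36 (permutation p = 0.221, adjusted p = 0.277) and rho was -0.52 (permutation p = 0.0839, adjusted p = 0.140), and r was -0.61 without the 2 farthest rats. With their median mitochondrial percentage r was 0.41 (permutation p = 0.181, adjusted p = 0.277) and rho was 0.018 (permutation p = 0.961, adjusted p = 0.961), and r was -0.11 without the 2 farthest rats. None of the 5 relations passed after adjustment, and as the proximal tubule nuclei, the denominator of the share, are also part of the number of nuclei of a rat, that relation is not between independent measures. Within the groups, as deviations from the group means with the rats permuted within their groups, r was -0.75 with the log10 number of nuclei (exact permutation p = 0.144, adjusted p = 0.359) and -0.68 with the share of stroma (exact permutation p = 0.0386, adjusted p = 0.193).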

How the data were processed

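Nuclei from kidneys of 12 ZSF1 rats, 3 in each of 4 groups, were sequenced by the authors with 10x 3' chemistry and processed, per the study's methods and processing notes, with Cell Ranger on a pre-mRNA reference of build rn6 (the processing notes name version 6, the study's resource list an earlier one), ambient RNA correction, doublet removal, Seurat and Harmony. Nuclei with 200 to 3000 genes and at most 15% mitochondrial UMIs were kept by the authors, and all 217132 deposited nuclei lie within these limits. The deposited table gives per nucleus, without normalization, the counts of UMIs and genes, the percent of mitochondrial UMIs and, as computed by the authors, the S and G2M scores, cluster names and map coordinates. The authors' differential proportion analysis was not repeated. Rats of the table were tied to a group by its group column, and to the GEO entries by group only.

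Members and comparisons were chosen with earlier results of these data known. Named clusters are PTinj, the other proximal tubule clusters and the 3 outside clusters that most often held the nearest nucleus (DTL, GEC(Meis2+) and ATL), and any other is said to be named after its values were seen. Values per rat were fitted with limma 3.58.1 in R 4.3.3 over all 12 rats, with Benjamini-Hochberg adjustment over clusters and a threshold of 0.05. The values were log odds of the share (0.5 added to the cluster, 1 to the total), log2 median UMIs, log2(median mitochondrial percentage + 0.1) or the mean score. Shares were fitted with every rat in every cluster, also where a rat had 0 nuclei. For the other values a rat with fewer than 10 nuclei in a cluster was left out for that cluster, and PTinj had a value in all 12. Single values were compared with exact two-sided permutation tests (scipy 1.17.1), and relations with 100000 permutations, or over all 1296 orders of the rats within their groups. The limma fits were tried on simulated rats, for Obese against Lean only, with normal noise of the same SD in every group. In the data the SD of the PTinj share of all nuclei was 4.03 in Obese and 0.0875 in Obese+sGCact rats. The simulation therefore does not test the fits under unequal spread. Alternatives were other scales, edgeR 4.0.16 on nuclei counts, other filters and denominators, and each rat left out.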

Additional observations from a re-analysis of the deposited data

How the results depend on the processing

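No paired analysis was possible because the animal names of the rats hold no number shared between groups. Filters of at least 1000 UMIs with at most 1% mitochondrial UMIs together, the share without the other proximal tubule nuclei as a result of its own, with its filters and left-out rats, the proximal tubule without PTnov1 and PTnov2, and the contrasts with Lean were chosen after seeing the data. The small groups, the makeup of the other proximal tubule nuclei and the lack of gene values limit what these shares can show, and a value that misses the threshold does not show equal groups.

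For the share of all nuclei, Obese against Lean (0.92 in log odds) passed on the centred log-ratio scale (1.62), with edgeR and TMM library sizes (1.59), with at least 1000 UMIs (1.82), at most 1% mitochondrial UMIs (1.94), both filters (2.11) and without the other proximal tubule nuclei (1.83). Obese+sGCact against Obese passed with at most 1% mitochondrial UMIs (-1.49), both filters (-1.65) and without the other proximal tubule nuclei (-1.26). Obese+sGCstim against Obese (0.11) turned negative on the arcsine scale (-0.0067), on the centred log-ratio scale (-0.37), with edgeR and total nuclei (-0.19) or TMM (-0.19), with at least 1000 UMIs (-0.42), at most 1% mitochondrial UMIs (-0.59), both (-0.71) and without the other proximal tubule nuclei (-0.51). For the share of proximal tubule nuclei, Obese against Lean passed with at least 1000 UMIs (1.55), at most 1% mitochondrial UMIs (1.74) and both (1.95). Obese+sGCact against Obese turned positive against PST alone (0.30). Obese+sGCstim against Obese turned negative on the arcsine (-0.016) and centred log-ratio scales (-0.24), with edgeR and total nuclei (-0.36), at least 1000 UMIs (-0.35), at most 1% mitochondrial UMIs (-0.57), both (-0.74) and against PCT alone (-0.094). The causes of these changes were not tested. The filter of at least 1000 UMIs kept a mean of 90.8% of the other proximal tubule nuclei in Lean rats. It kept 41.1% of them in Obese and 54.97% in Obese+sGCact rats. Of PTinj it kept a mean of 87.1% in Lean, 95.9% in Obese and 73.1% in Obese+sGCact rats.

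With at least 1000 UMIs the mitochondrial difference turned for Obese against Lean (0.0080) and for Obese+sGCact against Obese (-0.40). With at most 1% mitochondrial UMIs the UMI difference turned for Obese+sGCact against Obese (0.024) and against Obese+sGCstim (0.044), and with genes in place of UMIs for Obese+sGCstim against Obese (0.078). The S score difference of Obese+sGCstim against Obese was -0.0013 at 1000 to 2000 UMIs. For the G2M score, the median over nuclei ended the call for Obese against Lean (0.0091) and turned Obese+sGCstim against Obese (0.00073). Obese+sGCact against Obese passed with at least 20 nuclei in every rat (-0.013) and at 1000 to 2000 UMIs (-0.015), where Obese+sGCact against Obese+sGCstim passed too (-0.012). The share of clusters that passed in these settings was not counted. None of these turned values passed the threshold.

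The relation with the share of stroma was 0.11 with at most 1% mitochondrial UMIs. That with the share of immune nuclei was 0.30 with at least 1000 UMIs, 0.32 with at most 1% mitochondrial UMIs and 0.12 without the 2 farthest rats, and that with the mitochondrial percentage was -0.11 without the 2 farthest rats. The mean percentage of PTinj nuclei nearest to the proximal tubule was 46.7%, and 51.5% with neighbours of the same rat only, where single rats ranged from 27.1% to 83.1%.

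Without each rat in turn, the share of all nuclei gave 0.42 to 1.54 for Obese against Lean, which passed without RK9_4, and -0.52 to 0.61 for Obese+sGCstim against Obese. Without the other proximal tubule nuclei, Obese+sGCact against Obese gave -1.46 to -1.08, and the 5 rats whose absence ended the call are named in the report. The share of proximal tubule nuclei gave -0.32 to 1.34 for Obese against Lean, -1.27 to 0.38 for Obese+sGCact against Obese and -0.60 to 1.06 for Obese+sGCstim against Obese. The mitochondrial percentage gave -0.47 to 0.34 for Obese against Lean and -0.28 to 0.45 for Obese+sGCact against Obese, and UMIs gave -0.37 to 0.13 for Obese against Lean and -0.11 to 0.17 for Obese+sGCstim against Obese. The S score gave -0.00027 to 0.0055 for Obese+sGCstim against Obese and -0.011 to -0.0052 for Obese+sGCact against Obese+sGCstim, which passed without RK61_4. The G2M score gave 0.0088 to 0.016 for Obese against Lean and -0.016 to -0.0092 for Obese+sGCact against Obese, which passed without RK7_4, RK16_4 or RK46_4. PTinj minus the other proximal tubule nuclei, Obese+sGCact against Obese+sGCstim, gave -0.19 to 0.45 for log2 UMIs and -1.16 to 1.26 for the mitochondrial percentage. For the G2M score it gave -0.0088 to 0.0036 in Obese against Lean, -0.011 to 0.00090 in Obese+sGCact against Obese and -0.0056 to 0.0068 in Obese+sGCstim against Obese.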
